A study of Mus musculus with 8 samples.

Results

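Interferon-stimulated genes were followed across the cell classes of mouse colon tumours grown from transplanted organoids. The group comprised 41 genes named from general knowledge as targets of interferon signalling, out of 20275 gene symbols listed for the series without spike-ins and mitochondrial genes, and every one of the 41 was found by its symbol. They were split by role into 4 sensors of nucleic acid, 4 transcription factors, 3 genes of the ISG15 pathway (ISG15 is a ubiquitin-like protein), 16 antiviral effectors, 9 interferon-induced GTPases and 5 others. Values are in CPM, that is estimated transcripts of a gene per 1000000 transcripts of the same wells without spike-in and mitochondrial rows. Because a transcript is counted by its 3′ end alone, CPM counts molecules and does not grow with gene length.

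Tumours came from orthotopic grafts of colon tumour organoids, placed in the cecum wall of mice with floxed Zeb1 alleles. In FibCtrl mice (4, labelled Zeb1Fib-Ctrl) the Col1a1Cre-ERT2 transgene was absent, and in FibΔZeb1 mice (4, labelled Zeb1Fib-deleted) it was present, a design that deletes Zeb1 in cells that use the collagen promoter. Both groups received a tamoxifen diet, and the methods of the study name the driver as Col1a2-CreERT2 and the controls as Cre-negative littermates of both sexes. The age of the mice is not given in the sources used here. Cells had been sorted as EPCAM-positive, CD45-positive or negative for CD31, CD45 and EPCAM, into a 384-well plate for each mouse, and counted by SORT-seq, a plate method that reads the 3′ ends of transcripts with unique molecular identifiers (UMIs). The mouse and its plate were 1 replicate. Replicates 1 and 2 of both genotypes shared flow cell 1, and the other replicates (3 and 4) shared flow cell 2. Which gate a well came from was not used.

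Of 3072 wells, 1831 held at least 500 transcripts and passed the mitochondrial filter, from 98 on FibCtrl replicate 2 to 294 on FibCtrl replicate 1. Clustering without the 41 genes and naming clusters by fixed markers put 1500 of them into classes, and 331 (18.1%) stayed unnamed. The classes are epithelial-like, neutrophil-like and so on, and are called here by the cell type alone. The 6 main classes were epithelial (466 wells), neutrophil (256), macrophage (171), fibroblast (148), T cell (146) and B cell (143). Median depth ran from 1889 transcripts per well in neutrophils to 22160 in epithelial wells. A plate entered a class only with at least 10 of its wells, which left 8 plates for epithelial wells, 7 each for neutrophils and T cells, 6 for macrophages, 5 for fibroblasts and 3 for B cells. Zeb1 in fibroblasts was at 92.0 and 83.4 CPM on the FibCtrl plates and at 43.6, 47.96 and 27.8 CPM on the FibΔZeb1 plates. The marker list of a class was above the other 5 lists on every plate of that class, except in T cells of FibCtrl replicate 1 and FibΔZeb1 replicate 1, where the fibroblast list (4255 and 3344 CPM) passed the T cell list (3127 and 2535 CPM). Fibroblast markers were found in all classes, at 62027 to 93732 CPM in fibroblasts, 374 to 2983 in epithelial wells, 598 to 4922 in macrophages, 619 to 4255 in T cells, 739 to 5002 in B cells and 746 to 6798 in neutrophils, and their part in the results below was not tested.

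Interferons are secreted proteins that warn cells of virus and shape immune responses. Type I interferons (IFN-α and IFN-β) act through IFNAR1 and IFNAR2 and type III interferons (IFN-λ) through IFNLR1 and IL10RB, and both lead to a complex with STAT2 and IRF9 that binds the interferon-stimulated response element (ISRE). Type II interferon (IFN-γ), made mainly by T and natural killer cells, acts through IFNGR1 and IFNGR2 and leads to binding at the gamma-activated site (GAS), and many genes carry both elements.

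The promoters of 31 of the 41 genes were matched by symbol in RefSeq (GRCm38.p6, 300 bases per start, 250 before and 50 after it). The letters GAAANNGAA, the core of the ISRE, were searched on both strands and stood in the windows of 21 of the 31 genes, and TTCNNNGAA, the GAS, which reads the same on both strands, in 11. Counted by window, 56.8% of the genes' 37 windows held the ISRE core against 8.56% of all 32851 windows, and 29.7% held the GAS letters against 8.3%. Matches of both kinds may overlap each other. All 7 GTPases with a window held the ISRE core, and 4 of them also the GAS. Neither was found in the windows of Cmpk2, Irf7, Irf9, Oasl1, Oasl2 and Xaf1. A match describes letters and is not a bound site.

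The stretches before the start of 7 genes that recur below are shown 5′ to 3′ on the strand of the gene, with matches to either motif in capitals. Rsad2 (chr12:26456453-26456602, minus strand), Isg15 (chr4:156200819-156200968, minus strand) and Ifit1 (chr19:34640739-34640870, plus strand) stand for antiviral and ISG15-pathway genes with the ISRE core alone.
Rsad2: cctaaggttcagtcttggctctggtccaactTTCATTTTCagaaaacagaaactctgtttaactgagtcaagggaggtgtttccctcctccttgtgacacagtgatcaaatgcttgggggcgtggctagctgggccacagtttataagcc
Isg15: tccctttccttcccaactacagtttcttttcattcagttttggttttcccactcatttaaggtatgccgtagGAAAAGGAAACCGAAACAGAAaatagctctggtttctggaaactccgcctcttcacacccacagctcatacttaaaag
Ifit1: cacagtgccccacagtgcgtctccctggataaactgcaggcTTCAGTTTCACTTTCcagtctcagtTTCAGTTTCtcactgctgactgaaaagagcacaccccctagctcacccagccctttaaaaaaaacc
Gbp7 (chr3:142530186-142530335, plus strand) and Igtp (chr11:58199406-58199555, plus strand) stand for GTPases that hold both motifs. In Gbp7 the GAS letters begin 106 and 87 bases before the start and the ISRE core 52 bases before it, and in Igtp they begin 45 and 34 bases before it.
Gbp7: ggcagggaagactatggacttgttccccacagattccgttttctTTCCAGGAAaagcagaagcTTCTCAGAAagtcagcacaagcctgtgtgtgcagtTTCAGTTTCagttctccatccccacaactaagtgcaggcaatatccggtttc
Igtp: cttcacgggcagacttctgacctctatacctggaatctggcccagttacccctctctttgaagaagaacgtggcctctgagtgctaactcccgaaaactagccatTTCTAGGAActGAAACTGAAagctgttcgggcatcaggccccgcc
Irf1 (chr11:53769864-53770013, plus strand) held the GAS alone, 90 bases before the start, and Oasl2 (chr5:114896784-114896933, plus strand) held neither.
Irf1: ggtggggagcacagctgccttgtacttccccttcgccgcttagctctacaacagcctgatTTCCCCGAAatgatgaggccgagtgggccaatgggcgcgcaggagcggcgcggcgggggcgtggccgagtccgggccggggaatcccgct
Oasl2: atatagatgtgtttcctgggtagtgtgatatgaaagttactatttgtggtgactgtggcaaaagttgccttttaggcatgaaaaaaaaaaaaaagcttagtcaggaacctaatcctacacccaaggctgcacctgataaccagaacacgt

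The summed level of the 41 genes was highest in neutrophils and T cells and lowest in fibroblasts. The sum was 2778 ± 1076 CPM in neutrophils (SD, n = 7 plates), 2363 ± 291 in T cells (n = 7), 1985 ± 650 in macrophages (n = 6), 1261 ± 710.1 in epithelial wells (n = 8), 1181 ± 368 in B cells (n = 3) and 955 ± 106 in fibroblasts (n = 5). The plates of neutrophils (lowest 1526, highest 4485) enclosed all 7 of the T cells (1958 to 2738), so these neighbours did not differ beyond their spread, and macrophages (1335 to 2848) overlapped both. All 7 T cell plates lay above all 5 fibroblast plates (790.3 to 1056) and all 3 B cell plates (932, 1604 and 1008). Epithelial plates, from 636 to 2480.5 with a median of 849, spanned from below the fibroblasts to the level of T cells. The sums carry no test, since the genes were chosen with earlier results of these data known.

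**Figure D1:**
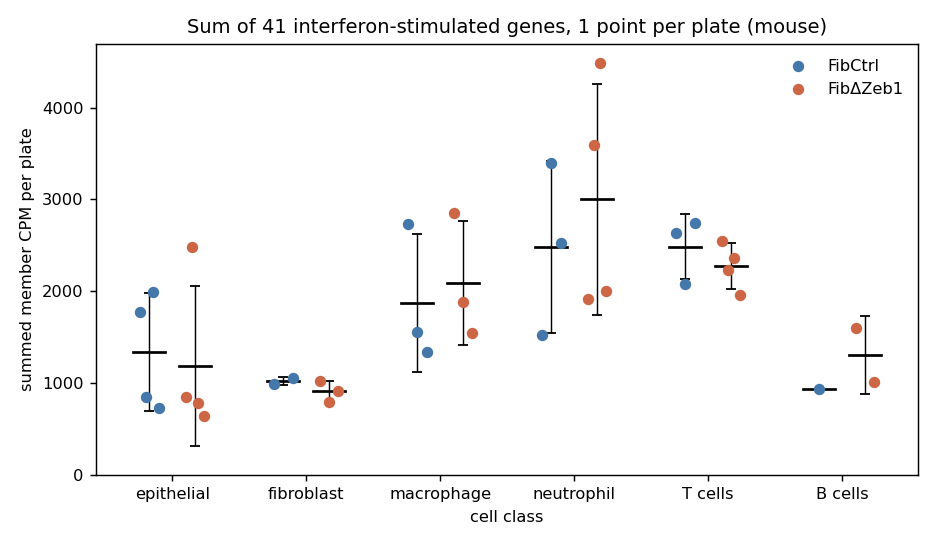
Sum of the 41 interferon-stimulated genes in CPM (vertical axis, from 0) for each of the 6 main classes (horizontal axis), with 1 point per plate and mouse, coloured by genotype, and the mean and SD of each class. The 7 T cell plates lie between 1958 and 2738 CPM, whereas the neutrophil plates reach from 1526 to 4485 CPM.

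The roles contributed unequally. In T cells the 9 GTPases made 42.9% of the sum, at 1013 ± 312 CPM (n = 7), with plates from 686 to 1509. The T cell class pooled clusters that differed in this. GTPases were at 1361 CPM in a cluster of 94 wells with Ctla4, Icos and Foxp3 among its leading genes. They were at 684 CPM in a cluster of 52 wells with Satb1 and S1pr1 among its leading genes. In the other main classes GTPases were at 138 ± 106 CPM in epithelial wells, 154 ± 30.2 in B cells, 185 ± 60.4 in fibroblasts, 455 ± 312 in neutrophils and 484 ± 332 in macrophages. In each of the other 5 classes the largest group by mean was the antiviral effectors, which with 16 of the 41 genes are also the largest role by number. They were at 1003 ± 557 CPM in neutrophils, 531 ± 213 in macrophages and 479.7 ± 357 in epithelial wells. In B cells they were at 385 ± 168, in fibroblasts at 301 ± 25.1 and in T cells at 472 ± 115. The ISG15 pathway was at 454 ± 288 CPM in neutrophils and at 74.2 ± 21.9 CPM in fibroblasts.

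**Figure D2:**
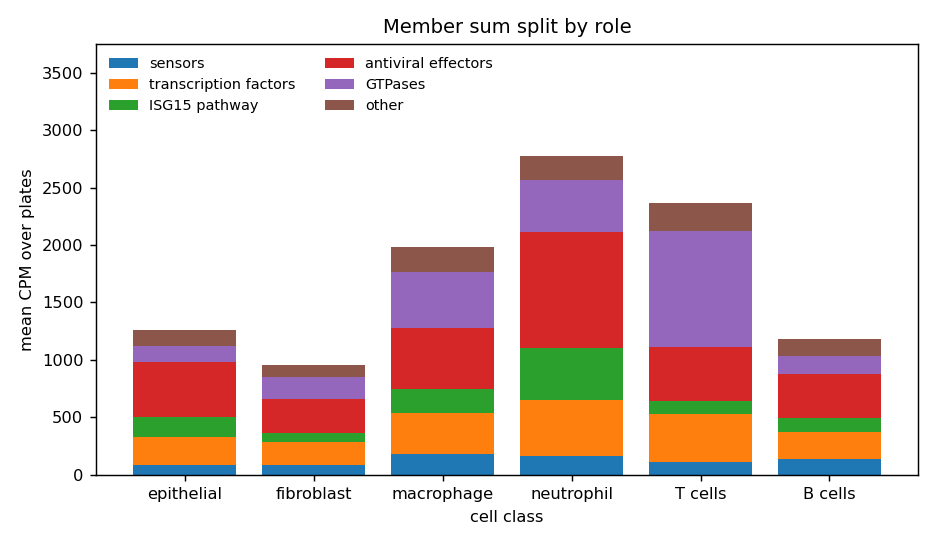
Mean CPM over plates (vertical axis, from 0) of the 41 genes in each main class (horizontal axis), stacked by role. GTPases fill 42.9% of the T cell bar, and antiviral effectors 36.1% of the neutrophil bar.

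Single genes were tested in each class against the mean of the other 5 (edgeR quasi-likelihood on counts summed per plate and class, plate as a term, adjusted over 9113 genes). Of the 41, 36 passed the expression filter, and 78 of 216 pairs of gene and class were called at an adjusted p below 0.05. The 36 that passed are those with enough counts in some class, so the counts say nothing of the 5 that did not. Those 5 were Ifit3, Mx1, Mx2, Ifi44 and Gbp5, with 89.01, 334, 147, 210.1 and 46 transcripts in all wells kept. Cmpk2, Ifit2, Irf9 and Irgm1 were tested and called in no class.

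**Figure D3:**
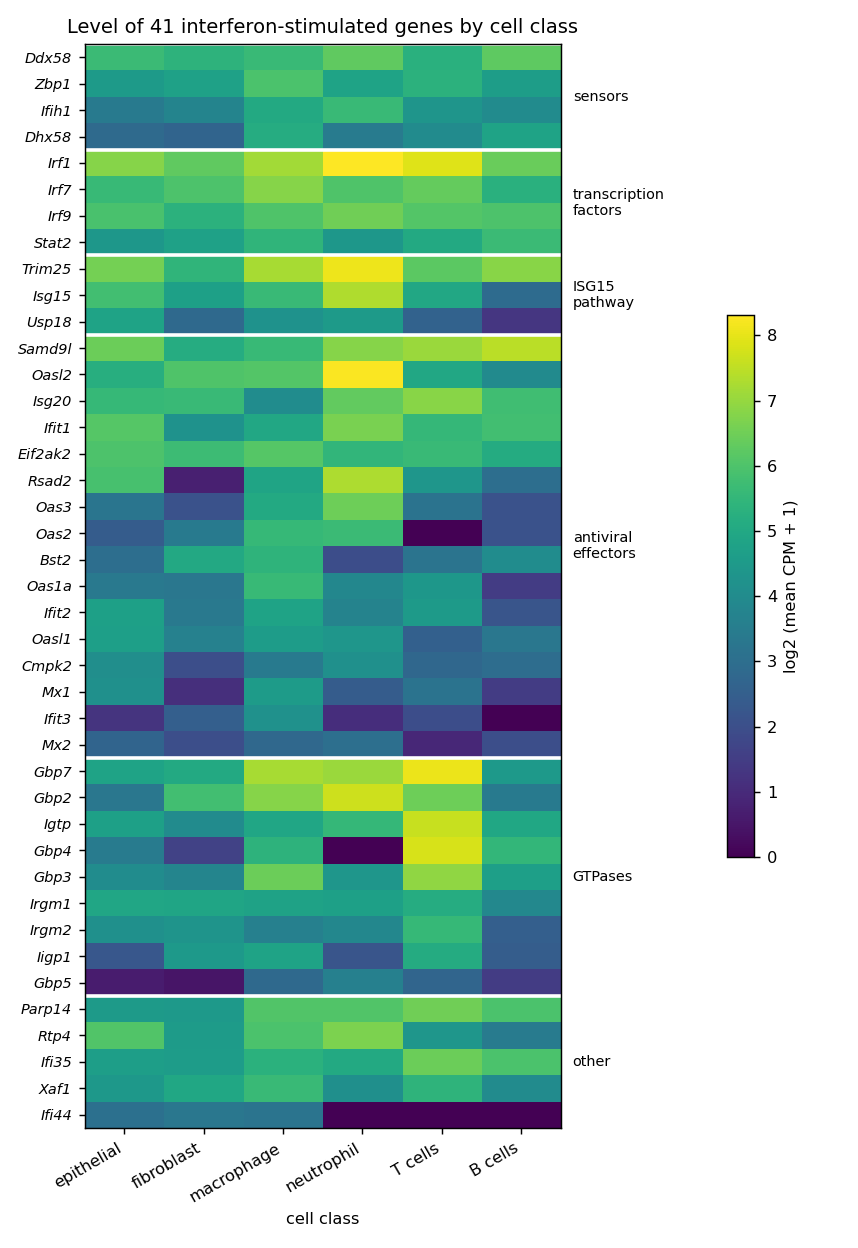
Mean CPM over plates of each of the 41 genes (rows, grouped by role) in the 6 main classes (columns), as log2 (mean CPM + 1) on a colour scale. Gbp4 is bright in T cells (224 CPM) and at 0 in neutrophils, while Rsad2 is bright in neutrophils (155 CPM) and near 0 in fibroblasts (0.678 CPM).

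In neutrophils the 4 largest positive fold changes were those of antiviral effectors. Rsad2, whose product viperin blocks viral RNA synthesis, was at 0, 50.8 and 599 CPM in neutrophils (lowest, median and highest of 7 plates), a mean of 155 ± 217 (SD, n = 7), and was called higher (log2 fold change 4.38, SE 0.82, adjusted p = 4.52e-05). Its level rested on part of the plates, since it was at 0 on 2 of the 7. Oasl2, a relative of the oligoadenylate synthetases that activate RNase L, was at 139, 298 and 518 CPM, every plate above the highest macrophage plate (136 CPM), with log2 fold change 3.27, SE 0.35, adjusted p = 1.08e-10. Oas2 was at 0, 64.5 and 103 CPM (log2 fold change 3.83, SE 0.71, adjusted p = 4.31e-05). Oas3 was at 0, 67.8 and 175 CPM (log2 fold change 3.40, SE 0.48, adjusted p = 1.2e-07). These synthetase genes were low in epithelial wells, with means of 4.37 CPM for Oas2 and 8.33 CPM for Oas3.

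In all, 13 of the 36 genes tested rose in neutrophils, where 15.2% of all genes were called higher and 17.4% lower, and the other 23 were not called. The genes' median log2 fold change was 0.75, against -0.29 over all genes. Of 13 antiviral effectors tested 5 rose, and of 8 GTPases 2, namely Gbp2 and Gbp7. Gbp2, a guanylate-binding protein that coats pathogen vacuoles, was at 16.9, 162 and 549.9 CPM (log2 fold change 3.27, SE 0.39, adjusted p = 2.62e-09). Irf1, the transcription factor with the GAS shown above, was the most abundant of the 41 here at 102, 300.4 and 762 CPM (log2 fold change 1.59, SE 0.27, adjusted p = 7.58e-06), and Trim25, an ISG15 and ubiquitin ligase, was at 41.2, 288 and 674 CPM (log2 fold change 1.57, SE 0.27, adjusted p = 5.33e-06). The remaining 6 genes called (Isg15, Rtp4, Ifit1, Gbp7, Ifih1 and Ddx58) rose by 0.85 to 2.52 on the log2 scale. Ifit1 lost its call without FibΔZeb1 replicate 3, Ifih1 without FibCtrl replicate 2 or FibΔZeb1 replicate 2 or 4, and Ddx58 in 6 of 8 fits that each left out 1 plate. Neutrophil libraries were shallow, with 40061 to 139621 transcripts per plate, and held other classes' markers, with the fibroblast list at 746 to 6798 CPM, the epithelial list at 412 to 1221 CPM and the macrophage list at 187 to 1338 CPM, whose part in these calls was not tested.

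T cells showed another set. Gbp4, a guanylate-binding protein, was at 137, 189 and 403 CPM over 7 T cell plates, and over all plates of the main classes the highest value outside T cells was 184 CPM, in macrophages of FibCtrl replicate 1 (log2 fold change 5.22, SE 0.50, adjusted p = 4.86e-11). In neutrophils it was at 0 on all 7 plates, 0 of 536622 transcripts, so that 3 counts would be 5.59 CPM and the mean in T cells was at least 40.1-fold higher. Igtp (Irgm3), an immunity-related GTPase, was at 68.7, 145 and 338 CPM (log2 fold change 2.65, SE 0.31, adjusted p = 1.85e-09), and Gbp3 at 20.2, 92.9 and 222 CPM (log2 fold change 2.07, SE 0.36, adjusted p = 1.38e-05). Gbp7 was at 172, 221 and 437 CPM (log2 fold change 2.04, SE 0.25, adjusted p = 1.33e-08), above the highest fibroblast plate (53.2 CPM) on every T cell plate. Igtp and Irgm2 overlap on chromosome 11 in the annotation, and guanylate-binding proteins are close paralogs, so their counts may be shared.

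In T cells 9 of the 36 genes tested rose and 3 fell, where 12.7% of all genes were called higher and 11.5% lower. The genes' median log2 fold change was -0.02, against -0.09 over all genes, and was the same with Oas2 set at its floor. Of 8 GTPases tested 5 rose (median 1.72), and of 13 antiviral effectors 1 rose and 2 fell (median -0.49). The antiviral gene that rose was Isg20, an RNA exonuclease, at 31, 110.2 and 202 CPM (log2 fold change 1.11, SE 0.34, adjusted p = 0.0118). Oas2 was at 0 on all 7 plates, 0 of 675402 transcripts, for which 3 counts are 4.44 CPM, so it was at least 11.2-fold lower than the mean of neutrophils (called lower, adjusted p = 0.0162). Oasl2 was at 12.7, 31 and 61.2 CPM (log2 fold change -1.52, SE 0.55, adjusted p = 0.0389). Trim25 was at 18.1, 63.1 and 159 CPM (log2 fold change -0.94, SE 0.33, adjusted p = 0.031). Gbp3, Gbp4, Gbp7 and Igtp were called in all 8 fits that each left out 1 plate, and the other 8 calls were lost in 1 to 5 of them, Oas2 and Isg20 without FibCtrl replicate 1.

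Macrophages had the most calls. Of the 36 genes tested 20 rose and 1 fell, where 20% of all genes were called higher and 8.49% lower, and the genes' median was 1.23 on the log2 scale against 0.04 over all genes. Scaling by DESeq2 size factors lowered the median of all genes in this contrast by 0.13. Oas2 was at 20.2, 44.2 and 82.6 CPM over 6 plates (log2 fold change 3.81, SE 0.62, adjusted p = 4.63e-06), and Oas1a at 16.8, 46.1 and 73.9 CPM (log2 fold change 2.76, SE 0.49, adjusted p = 1.56e-05). Oas3 was at 11.5, 26.1 and 54.8 CPM (log2 fold change 2.25, SE 0.48, adjusted p = 0.000214), so that the 3 synthetase genes on chromosome 5 all rose. Bst2 (tetherin), which holds budding virions at the cell surface, was at 4.21, 42.6 and 77.7 CPM (log2 fold change 2.40, SE 0.49, adjusted p = 0.000133). Isg20 was the gene that fell, at 7.19, 15.1 and 28.9 CPM (log2 fold change -1.69, SE 0.41, adjusted p = 0.00124).

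By role, macrophages had 3 of 4 sensors called higher, 2 of 3 genes of the ISG15 pathway, 6 of 13 antiviral effectors, 5 of 8 GTPases and 1 of 4 transcription factors, Irf7. Irf7, which drives type I interferon genes, was at 67.4, 107 and 187 CPM (log2 fold change 1.59, SE 0.42, adjusted p = 0.0028). The sensors were Dhx58, Zbp1 and Ifih1 (MDA5), with log2 fold changes of 2.21, 1.76 and 1.49. Gbp4 rested on 1 mouse, since FibCtrl replicate 1 had 184 CPM and the other 5 plates 0 to 25.3 CPM, and its call was lost without that plate. Without FibΔZeb1 replicate 1, 12 genes were called higher in place of 20. The sums of macrophages were 2733 and 2848 CPM on the 2 plates of flow cell 1 and 1335 to 1887 CPM on the 4 plates of flow cell 2, a difference whose part in the calls was not tested.

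Epithelial wells had more of these genes called lower than higher. Of the 36 genes tested 14 fell and 2 rose, where 19.9% of all genes were called lower and 32.9% higher, and the median was -0.64 against 0.14 over all genes. Gbp2 was at 0, 6.96 and 32.8 CPM over 8 plates (log2 fold change -2.97, SE 0.46, adjusted p = 4.09e-07). Iigp1, another immunity-related GTPase, was at 0, 0.672 and 24.3 CPM (log2 fold change -2.30, SE 0.60, adjusted p = 0.00122) and Gbp7 at 5.9, 26.7 and 51.6 CPM (log2 fold change -1.60, SE 0.26, adjusted p = 1.05e-06). In all 5 of 8 GTPases fell, together with 3 of 4 transcription factors (Irf1, Irf7 and Stat2), 2 of 4 sensors and 2 of 13 antiviral effectors. The genes that rose were Usp18, the protease that removes ISG15, at 13.1, 20.4 and 85.8 CPM (log2 fold change 1.47, SE 0.46, adjusted p = 0.0064), and Rtp4, at 28, 60.4 and 128 CPM (log2 fold change 1.04, SE 0.27, adjusted p = 0.00121). Without FibΔZeb1 replicate 1 the count that fell was 8 in place of 14.

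Fibroblasts had the lowest sum, with 3 genes called higher and 7 lower of 36, where 25.9% of all genes were called higher and 15.8% lower. The median was -0.08 against 0.07 over all genes. Bst2 was nearly the same on each plate, at 29.1 and 30.2 CPM on the FibCtrl plates and 36.3, 28.4 and 31.3 CPM on the FibΔZeb1 plates (log2 fold change 1.89, SE 0.48, adjusted p = 0.00111). Iigp1 was at 38.8 and 12.9 CPM on the FibCtrl plates and 29.1, 7.1 and 17.4 CPM on the FibΔZeb1 plates (log2 fold change 2.15, SE 0.57, adjusted p = 0.00187). Oasl2 was at 53.3 and 80.6 CPM on the FibCtrl plates and 71.2, 58.6 and 59.1 CPM on the FibΔZeb1 plates (log2 fold change 0.94, SE 0.37, adjusted p = 0.0349), a call lost without replicate 2 or 4 of either genotype. Rsad2 was almost absent from the counts, with 3 transcripts over 5 plates, which is 0.00503 of the pooled neutrophil level (exact 95% interval 0.00102 to 0.0151, counting error only), and was called lower (adjusted p = 0.0165). Gbp3 was at 19.4 and 10.1 CPM on the FibCtrl plates and 13.1, 7.1 and 13.9 CPM on the FibΔZeb1 plates (log2 fold change -1.36, SE 0.44, adjusted p = 0.0111). Igtp was at 23.2 and 11.5 CPM on the FibCtrl plates and 18.9, 5.33 and 17.4 CPM on the FibΔZeb1 plates (log2 fold change -1.24, SE 0.39, adjusted p = 0.00916). The other genes that fell were Samd9l, Trim25, Gbp7 and Parp14, with log2 fold changes from -1.12 to -0.90.

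B cells rested on FibCtrl replicate 1 and FibΔZeb1 replicates 2 and 4. Of 36 genes tested 6 fell and the other 30 were not called, where 5.94% of all genes were called lower and 9.78% higher, and the median was -1.38 against -0.04 over all genes. Isg15 was at 9.05 CPM on the FibCtrl plate and 10.6 and 0 CPM on the FibΔZeb1 plates, 4 transcripts in all (log2 fold change -3.67, SE 0.93, adjusted p = 0.00355). Gbp2 was at 13.6 CPM on the FibCtrl plate and 15.8 and 0 CPM on the FibΔZeb1 plates (log2 fold change -3.00, SE 0.85, adjusted p = 0.00971). Rtp4 had 3 transcripts over the 3 plates, 0.0603 of the pooled neutrophil level (exact 95% interval 0.0121 to 0.185), and was called lower (adjusted p = 0.00601). Gbp7, Oasl2 and Irf1 fell as well, with log2 fold changes of -2.52, -2.39 and -1.26. Of the 6 calls only that of Gbp7 held in all 8 fits that each left out 1 plate, and without FibCtrl replicate 1 the count was 2 and without FibΔZeb1 replicate 2 it was 3. Samd9l, a growth-restraining antiviral factor, was not called but was at its highest mean here, 175 ± 54 CPM, against 133 ± 83.2 CPM in T cells and 34.2 ± 8.37 CPM in fibroblasts.

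Over the 6 main classes the 12 genes with the highest mean level, which made 57.5% of the sum, were Irf1, Trim25, Gbp7, Samd9l, Oasl2, Gbp2, Irf7, Irf9, Isg20, Igtp, Ddx58 and Parp14. Irf9, the DNA-binding partner of STAT2, ran from 39.2 ± 10.8 CPM in fibroblasts to 89.5 ± 43.4 CPM in neutrophils, and was called in no class. Ddx58 (RIG-I), a sensor of viral RNA, ran from 37.7 ± 28.6 CPM in T cells to 76.3 ± 49.7 CPM in neutrophils. Parp14, an ADP-ribosyltransferase, ran from 21.3 ± 5.3 CPM in fibroblasts to 89.8 ± 55.6 CPM in T cells. By mean level the top class was neutrophils for 16 genes, T cells and macrophages for 10 each, epithelial wells and B cells for 2 each and fibroblasts for 1, and most neighbours in these orders overlapped in their plates. Clustering did not use the 41 genes, but it used genes that vary with them, so the wells of a class are not independent of these genes' levels.

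The wider pathway was read from lists fixed by role. Of 9 interferon genes looked for, 5 were listed, and type I and III ligands were nearly absent from the counts, with 1 transcript of Ifnb1, 2 of Ifnl2, 1 of Ifnl3 and 5 of Ifne in all wells kept. Ifng, which encodes IFN-γ, was found mostly in T cells, at 732, 72.3 and 63.4 CPM on FibCtrl replicates 1, 3 and 4, at 243 CPM on FibΔZeb1 replicate 3 and at 0 on the other 3 T cell plates. A single well held 95.4% of the Ifng transcripts of T cells on FibCtrl replicate 1, and a single well held all of those on FibΔZeb1 replicate 3. The class test called Ifng higher in T cells (log2 fold change 7.08, adjusted p = 5.89e-12), although 3 of 7 plates were at 0.

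Of 6 receptor chains 5 could be tested, and all 5 rose in macrophages, while 4 fell in epithelial wells. Elsewhere 2 rose in neutrophils, 1 in T cells and 1 in fibroblasts. In T cells and fibroblasts 2 each fell, and in B cells 1. Ifngr1, the binding chain for IFN-γ, was most abundant in T cells, at 309.5, 808 and 1307 CPM over 7 plates (log2 fold change 2.67), where the lowest plate lay within the macrophages, whose highest plate was at 381 CPM. Ifnlr1, the binding chain for IFN-λ, was found in epithelial wells (15.9 ± 5.97 CPM, n = 8) and neutrophils (36.8 ± 38.9 CPM, n = 7) and had too few counts for the test. Among 11 signalling genes tested 5 rose and 0 fell in T cells, and 5 rose and 1 fell in B cells. In macrophages 4 rose and 1 fell, and in neutrophils 4 rose and 2 fell. In epithelial wells 7 fell and 2 rose, and in fibroblasts 5 fell and 0 rose. The shares of all genes called in each class are given above. Of 4 inhibitors, Socs1 was called higher in T cells and in fibroblasts, and Socs3 in neutrophils, at 492, 828 and 1898 CPM, and in macrophages. Another 20 interferon-induced genes, of which 15 could be tested, were called higher 11 times and lower 1 time in T cells, 10 times higher in macrophages, 1 time each way in neutrophils and B cells, and mostly lower in epithelial wells (10 lower, 2 higher) and fibroblasts (7 lower, 2 higher). Ly6e, among these 20, averaged 2583 CPM in epithelial wells, 3064 in B cells and 2913 in T cells. It averaged 1467 CPM in macrophages, 1089 in neutrophils and 818 in fibroblasts. Ifitm3 averaged 1305, 130, 186, 977, 627 and 983 CPM in the same order of classes. The order of the classes by sum is thus that of the genes chosen for the sum.

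At the full depth of each well, a spread between the wells of a class remained beyond counting error. The only exception was T cells on FibΔZeb1 replicate 4, where it was 0. The coefficient of variation of the sum between wells, after the Poisson error of each well's depth was removed, averaged 1.18 ± 0.493 in neutrophils (n = 7), 0.979 ± 0.673 in epithelial wells (n = 8), 0.729 ± 0.331 in macrophages (n = 6), 0.57 ± 0.112 in fibroblasts (n = 5), 0.505 ± 0.068 in B cells (n = 3) and 0.37 ± 0.249 in T cells (n = 7). T cells had a high sum and the lowest mean spread. Their plates ran from 0 to 0.74 and overlapped those of each other class except neutrophils (lowest plate 0.825). With each well thinned to 1000 transcripts, 14.4% of T cell wells held no transcript of the 41 genes, against 26.7% of neutrophils, 41.4% of epithelial wells and 43.6% of fibroblasts, as means over plates with shallower wells left out (139 of 141 T cell, 229 of 252 neutrophil, 436 of 466 epithelial and 126 of 129 fibroblast wells were kept). Without thinning these shares were 1.06%, 12.6%, 6.33% and 7.42%, in wells of unequal depth. The thinned shares also depend on the mean count of a thinned well. It was 2.5 in T cells, 2.86 in neutrophils, 1.41 in epithelial wells and 1.04 in fibroblasts. Thinning moved the spread of fibroblasts to 0.766 and of B cells to 0.369, near that of T cells (0.351). After thinning the spread was 0 in epithelial wells of FibCtrl replicate 4 and FibΔZeb1 replicate 1 and in fibroblasts of FibCtrl replicate 1. The same held for T cells of FibΔZeb1 replicates 3 and 4 and B cells of FibΔZeb1 replicate 4. Fibroblasts of FibΔZeb1 replicate 4 and macrophages of FibCtrl replicate 4 gave no thinned value and are left out of the thinned means. Across wells of a plate, antiviral effectors and GTPases had a median Pearson r of 0.44 in epithelial wells, 0.41 in fibroblasts, 0.36 in macrophages and 0.31 in neutrophils, but -0.05 in T cells and 0.04 in B cells. The wells of a plate share its library, and sparse counts pull such values to 0, so they are descriptions.

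**Figure D4:**
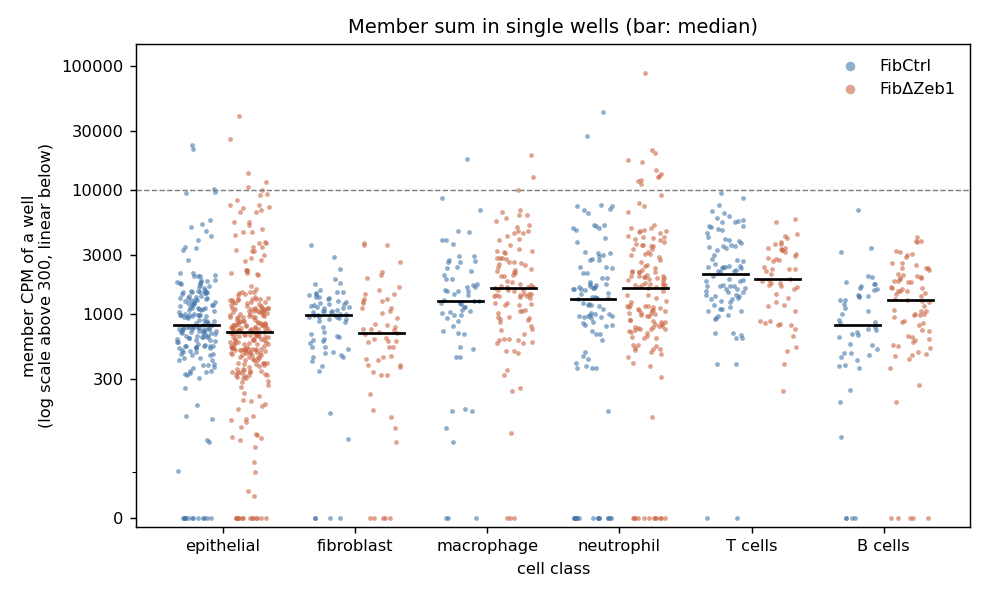
Sum of the 41 genes in CPM for each well (points, coloured by genotype; vertical axis logarithmic above 300 and linear below) in the 6 main classes (horizontal axis), with the median of each class and genotype as a bar and a dashed line at 10000 CPM. Wells above the line are seen in neutrophils, epithelial wells and macrophages, and T cells, B cells and fibroblasts have none.

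A few wells carried much of the sum. A limit of at least 10000 CPM with at least 10 transcripts of the 41 genes, set after the wells were seen, was passed by 14 of 256 neutrophils (5.47%, exact 95% interval 3.02 to 9.01), 9 of 466 epithelial wells (1.93%, 0.887 to 3.63) and 4 of 171 macrophages (2.34%, 0.641 to 5.88). In fibroblasts it was 0 of 148, in T cells 0 of 146 and in B cells 0 of 143, with upper bounds of 2.46%, 2.49% and 2.55%. The 14 neutrophils held 37.2% of the transcripts of the 41 genes in their class, and the 9 epithelial wells 20.4%. The 9 epithelial wells came from 2 plates, 6 from FibΔZeb1 replicate 2 and 3 from FibCtrl replicate 3, and 8 of the 14 neutrophils came from FibΔZeb1 replicate 3. The intervals treat wells as independent, which wells of a plate are not.

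The epithelial well with the highest level, on FibΔZeb1 replicate 2, had 36411 transcripts, of which 1442 (39613 CPM) came from the 41 genes. All 41 were detected in it, led by Rsad2 (448 transcripts), Ifit1 (139), Isg15 (113) and Cmpk2 (105), and it held 36.4% of the transcripts of the 41 genes in epithelial wells of its plate. In the neutrophil with the highest level, on FibΔZeb1 replicate 3, these genes made 8.69% of 1372 transcripts, again led by Rsad2 (36.2 transcripts). Another neutrophil, on FibCtrl replicate 4, reached 42215 CPM with GTPases at 63.6% of its transcripts from the 41 genes and Gbp2 as the leading gene (37.2 transcripts). On FibΔZeb1 replicate 4 a neutrophil passed the limit with Irf1 (19.04 transcripts) and Trim25 (2) alone. High wells were thus led by different genes. Without the highest well of each plate and class, chosen after seeing the data, the sum was 2238 ± 791 CPM in neutrophils, 2174 ± 239 in T cells, 1756 ± 641 in macrophages, 1030.3 ± 424 in epithelial wells, 1131 ± 393 in B cells and 874 ± 123 in fibroblasts.

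**Figure D5:**
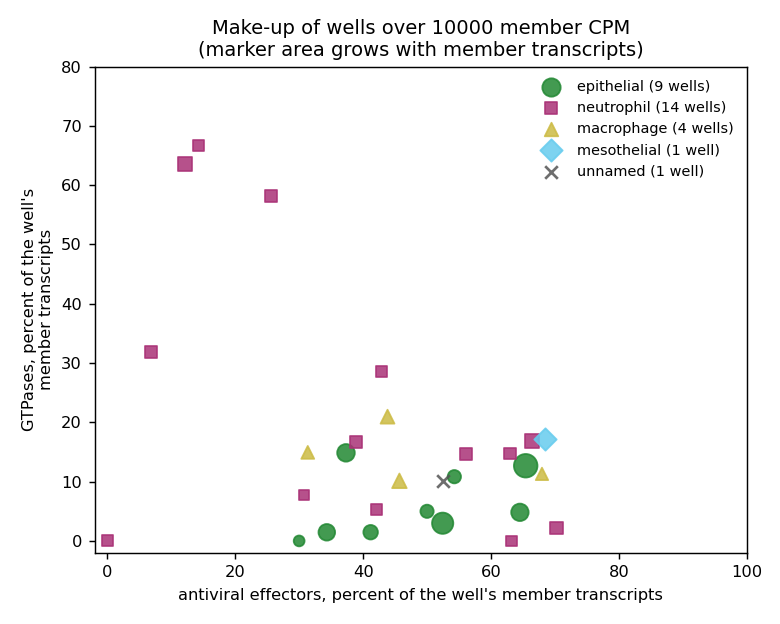
Wells over 10000 CPM of the 41 genes, placed by the percent of their transcripts from these genes that came from antiviral effectors (horizontal axis) and from GTPases (vertical axis), with marker area growing with the number of such transcripts and marker shape giving the class. The 3 neutrophils at the top, 1 of FibCtrl replicate 4 and 2 of FibΔZeb1 replicate 3, lie between 58.2% and 66.7% GTPases.

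An epithelial cluster of 29 wells, 25 of them on FibΔZeb1 replicate 2, also stood high. Lypd8, Clca6, Guca2a, Car1 and Krt20 were among its leading genes, and the 41 genes were at 7103 CPM in it. Isg15, which is conjugated to other proteins in infected cells, was at 906 CPM there against 29.8 CPM in the other epithelial wells. Ifit1, which binds viral RNA, was at 836 against 48.1 CPM, and Irf7 at 804 against 22.2 CPM. These were the genes of highest level in the cluster, and not all of the 41 were raised. Gbp3 (19.2 against 18.3 CPM) and Irgm2 (22 against 19.5 CPM) were near the other epithelial wells. Isg20 (27.5 against 51.6 CPM) and Gbp4 (0 against 13.9 CPM) were below them. The 25 wells of FibΔZeb1 replicate 2 were at 5242 CPM and held 36.8% of the transcripts of the 41 genes in epithelial wells of that plate. The other 4 epithelial clusters with wells on that plate were at 654, 739, 853 and 2817 CPM, the last with a median well of 818 CPM. On the other plates the wells of the cluster were also high, with 2 at 4402 CPM on FibCtrl replicate 2, 1 at 23259 CPM on FibCtrl replicate 3 and 1 at 6638 CPM on FibΔZeb1 replicate 4. The well on FibCtrl replicate 3 weighed heavily in the pooled value, with 905 transcripts of the 41 genes against 1461 in the 25 wells of FibΔZeb1 replicate 2. Without the cluster, left out after seeing the data, the epithelial sum was 1079 ± 525 CPM (n = 8).

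Genotype was compared within each class on plate sums (edgeR, 1 fit per class). By this test 0 of the genes passed at an adjusted p below 0.05 in any of the 6 classes, and DESeq2 also called 0 of them. In epithelial wells 31 of the genes could be tested and 0% of all genes were called, and 0 of the 31 had an unadjusted p below 0.05, as had 1.84% of all genes tested. The epithelial sum was 1769, 847, 1995 and 730.1 CPM on the FibCtrl plates and 851, 2480.5, 777 and 636 CPM on the FibΔZeb1 plates, so the groups overlapped (means 1335 and 1186 CPM). The difference was 358 CPM within flow cell 1 and -656 CPM within flow cell 2, opposite in sign. Usp18 was at 20.2, 20.7, 85.8 and 16.8 CPM on the FibCtrl plates and 16.3, 26.3, 21.2 and 13.1 CPM on the FibΔZeb1 plates, with a log2 fold change of -0.89 (SE 0.53, edgeR unadjusted p of 0.125, adjusted p = 0.9999). Irf1 was at 259, 118, 66.8 and 104 CPM on the FibCtrl plates and 92, 126, 54.2 and 61.6 CPM on the FibΔZeb1 plates (log2 fold change -0.73, unadjusted p of 0.128). Irf9 was at 77.7, 60.5, 85 and 41.1 CPM on the FibCtrl plates and 57.4, 56.9, 53 and 47.8 CPM on the FibΔZeb1 plates (log2 fold change -0.31, unadjusted p of 0.242).

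In fibroblasts, the cells the deletion was aimed at, 27 genes could be tested, where 0.0121% of all genes were called. Of the 27, 2 (7.41%) had an unadjusted p below 0.05, close to 5.95% of all genes tested. The sum was 994 and 1056 CPM on the FibCtrl plates and 1019.6, 790.3 and 914 CPM on the FibΔZeb1 plates, a mean of 1025 against 908 CPM with overlapping plates. Irgm2, an immunity-related GTPase, was at 14.5 and 56.1 CPM on the FibCtrl plates and 8.71, 7.1 and 6.95 CPM on the FibΔZeb1 plates, with a log2 fold change of -2.16 (SE 0.67, edgeR unadjusted p of 0.0124, adjusted p = 0.694). The genotypes did not overlap, with the FibΔZeb1 plates lower, although the FibCtrl plates themselves stood far apart. Stat2 was at 41.6 and 37.4 CPM on the FibCtrl plates and 18.9, 24.9 and 6.95 CPM on the FibΔZeb1 plates (log2 fold change -1.17, unadjusted p of 0.0308, adjusted p = 0.81 by edgeR), again without overlap. Oasl1 was at 4.84 and 1.44 CPM on the FibCtrl plates and 4.36, 30.2 and 17.4 CPM on the FibΔZeb1 plates (log2 fold change 2.23, unadjusted p of 0.0592). Of all 41 genes 5 had plates that did not overlap between genotypes (Irgm2, Oas3, Stat2, Trim25 and Xaf1), 3 of them higher in FibΔZeb1, which is 12.2%, below the 17.2% of all genes with a transcript in fibroblasts. By role, GTPases were at 267 and 213 CPM on the FibCtrl plates and at 161, 105 and 181 CPM on the FibΔZeb1 plates. Transcription factors were also lower without overlap (231 and 281 against 218, 117 and 174 CPM). Antiviral effectors were higher without overlap (262 and 293 against 322, 305 and 323 CPM). Sensors, the ISG15 pathway and the group of others overlapped between genotypes.

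In macrophages 22 genes could be tested, and 0% of all genes were called. Of the 22, 5 (22.7%) had an unadjusted p below 0.05 by edgeR, against 3.82% of all genes tested. The sum was 2733, 1559 and 1335 CPM on the FibCtrl plates and 2848, 1887 and 1546 CPM on the FibΔZeb1 plates, with means of 1876 and 2094 CPM. The macrophage class pooled clusters at 2362, 1697 and 1011 CPM, unequally spread over the plates. The cluster at 1011 CPM gave 15 of 34 wells on FibCtrl replicate 3, and 0 and 2 wells on FibCtrl replicates 1 and 4. On FibΔZeb1 replicates 1, 3 and 4 it gave 1, 0 and 3 wells. The part of this make-up in the values below was not tested. Bst2 was at 38.3, 4.21 and 15.3 CPM on the FibCtrl plates and 77.7, 68.3 and 47 CPM on the FibΔZeb1 plates, all 3 FibΔZeb1 plates above all 3 FibCtrl plates, with a log2 fold change of 2.00 (SE 0.56, edgeR unadjusted p of 0.00525, adjusted p = 0.9996). Oas1a was at 30.6, 16.8 and 38.4 CPM on the FibCtrl plates and 71.6, 53.9 and 73.9 CPM on the FibΔZeb1 plates, likewise without overlap (log2 fold change 1.20, unadjusted p of 0.0135, adjusted p = 0.9996 by edgeR). Oasl2 was at 61.2, 42.1 and 30.7 CPM on the FibCtrl plates and 136, 75.5 and 53.8 CPM on the FibΔZeb1 plates, with overlap (log2 fold change 1.12, unadjusted p of 0.0311). It was higher in FibΔZeb1 in each of the 3 same-numbered pairs, and with a replicate block edgeR gave an unadjusted p of 0.03 and adjusted p = 0.99. Of all 41 genes 6 did not overlap, 5 of them higher in FibΔZeb1 (Bst2, Ddx58, Irf7, Oas1a and Oas3) and Igtp lower, which is 14.6%, where 7.22% of all genes with a transcript in macrophages did not overlap. Without the expression filter Gbp4 (log2 fold change -2.40, adjusted p = 0.0314) and Rsad2 (2.85, adjusted p = 0.00756) were called in macrophages, Rsad2 in neutrophils (3.28, adjusted p = 0.00365) and Irgm2 in fibroblasts (-2.17, adjusted p = 0.0187). With no filter 0.299% of all genes were called in macrophages, 0.151% in neutrophils and 2.12% in fibroblasts. The macrophage level of Gbp4 rested on FibCtrl replicate 1, as given above.

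In neutrophils 5 genes passed the filter of this comparison and 0.0942% of all genes were called, and 0 of the 5 had an unadjusted p below 0.05, as had 3.86% of all genes tested. The sum was 1526, 3396 and 2523 CPM on the FibCtrl plates and 1918, 3595, 4485 and 2002 CPM on the FibΔZeb1 plates, with means of 2482 and 2999.9 CPM. Trim25 was at 288, 41.2 and 294 CPM on the FibCtrl plates and 116, 674, 207 and 298 CPM on the FibΔZeb1 plates (log2 fold change 0.57, unadjusted p of 0.399). Irf1 was at 102, 762 and 237 CPM on the FibCtrl plates and 300.4, 325, 143 and 348 CPM on the FibΔZeb1 plates (log2 fold change -0.43, unadjusted p of 0.498), and Gbp2 at 16.9, 268 and 288 CPM on the FibCtrl plates and 162, 74.9, 549.9 and 62.1 CPM on the FibΔZeb1 plates (log2 fold change 0.22, unadjusted p of 0.781). For each the groups overlapped widely. High wells, by the limit above, numbered 2 of 107 in FibCtrl and 12 of 149 in FibΔZeb1, but 8 of the 12 were on replicate 3, and no test over mice was made.

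In T cells 4 genes passed the filter and 0% of all genes were called, and 0 of the 4 had an unadjusted p below 0.05, as had 2.87% of all genes tested. The sum was 2631, 2078 and 2738 CPM on the FibCtrl plates and 2547, 2229, 2362 and 1958 CPM on the FibΔZeb1 plates, with means of 2482 and 2274 CPM. The T cell cluster richer in GTPases gave 30 of 46, 11 of 19 and 22 of 23 wells on the FibCtrl plates. On the FibΔZeb1 plates it gave 15 of 18, 1 of 11, 5 of 13 and 7 of 11 wells. The part of this make-up in the values below was not tested. Gbp7 was at 375, 217 and 437 CPM on the FibCtrl plates and 221, 248, 202 and 172 CPM on the FibΔZeb1 plates, with a log2 fold change of -0.71 (SE 0.35, edgeR unadjusted p of 0.0647, adjusted p = 0.96). Igtp was at 338, 145 and 279 CPM on the FibCtrl plates and 319, 124, 80.8 and 68.7 CPM on the FibΔZeb1 plates (log2 fold change -0.64, unadjusted p of 0.193), and Irf1 at 330.3, 199 and 247 CPM on the FibCtrl plates and 221, 124, 363 and 206 CPM on the FibΔZeb1 plates (log2 fold change -0.15, unadjusted p of 0.694). Of all 41 genes 3 did not overlap in T cells (Dhx58, Oasl2 and Stat2), all 3 higher in FibΔZeb1, where 4.64% of all genes with a transcript did not. In epithelial wells and neutrophils 0 of the 41 were free of overlap, where 1.37% and 2.66% of all genes were. In B cells, with 1 plate against 2, 11 genes could be tested, and 0% of all genes were called. Of the 11, 1 had an unadjusted p below 0.05, as had 2.56% of all genes tested. The sum was 932 CPM on the FibCtrl plate and 1604 and 1008 CPM on the FibΔZeb1 plates. Isg20 was at 18.1 CPM on the FibCtrl plate and 100.3 and 40.3 CPM on the FibΔZeb1 plates (log2 fold change 2.14, unadjusted p of 0.0466, adjusted p = 0.999 by edgeR). Ifit1 was at 13.6 CPM on the FibCtrl plate and 47.5 and 101 CPM on the FibΔZeb1 plates and Samd9l at 113 CPM on the FibCtrl plate and 211 and 202 CPM on the FibΔZeb1 plates (log2 fold changes 2.19 and 0.88, unadjusted p of 0.115 and 0.134). Over all 41 genes 18 did not overlap between the 1 FibCtrl plate and the 2 FibΔZeb1 plates, 12 of them higher in FibΔZeb1, where 55.4% of all genes with a transcript in B cells did not overlap. A single FibCtrl mouse gives no spread of its own for B cells.

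Smaller classes are given as pooled values with exact 95% Poisson intervals, which cover counting error only. The 41 genes were at 2321 CPM in 25 pericyte wells (2186 to 2462), 1909.6 CPM in 33 natural killer or innate lymphoid wells (1635 to 2217), 1896 CPM in 31 dendritic wells (1762 to 2037), 1572 CPM in 33 mesothelial wells (1493 to 1654) and 531 CPM in 11 mast cell wells (379 to 723). In the pericytes of FibΔZeb1 replicate 1, the plate with most of them, GTPases took 22.4% and transcription factors 24.3% of the sum. Wells too shallow to keep, which may include empty control wells, also held these genes, with 331 transcripts in 1021 wells, or 1619 CPM. Eif2ak2, the kinase PKR that halts translation on double-stranded RNA, made 45.8% of the sum in unnamed wells and was at 279 CPM in the shallow ones, against means of 33.5 to 68.1 CPM in the main classes. Without Eif2ak2, left out after seeing the data, the order of the main classes by mean sum was the same.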

How the data were processed

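Colon tumour grafts of 8 mice were sorted into 384-well plates and counted by SORT-seq. The deposited values are expected counts (estimated counts of transcripts) per gene and well, which the authors made by aligning reads with bwa to the GRCm38 transcriptome, collapsing UMIs and correcting for UMI collisions. The labels also list Cell Ranger 2.1.1, with no role given. Strand use in counting is not given in the sources used here. All 8 plates share the same 384 well names, so shared cells cannot be counted from them. Some items are not reported here. No doublet caller was run, since 1 cell was sorted per well.

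Spike-in and mitochondrial rows were left out (9.15% of transcripts, and 13.4% of the rest). Wells needed 500 transcripts and a mitochondrial share within 3 median absolute deviations. They were clustered on 2000 variable genes without the 41 genes (20 components, 15 neighbours, Leiden resolution 1), clusters were named by markers, and fibroblast wells with at least 2 Ptprc or Epcam transcripts were removed (37). Counts were rounded and summed per plate and class, and tested with edgeR 4.0.16 in R 4.3.3 (TMM, quasi-likelihood, Benjamini-Hochberg over all genes), with DESeq2 1.42.0 as an alternative. Data simulated from these counts held large planted changes in genes with enough counts. The tests recovered most of them in neutrophils against the other classes and between genotypes in epithelial wells. For genotype in fibroblasts the simulation was run too, but no such recovery was required of it. The lack of calls there therefore does not show that large changes are absent. Smaller changes were not simulated. The 41 genes, the marker and pathway lists and the tests were chosen with earlier results of these data known. The genes named are the 12 of highest level, the 4 called members with the largest positive and the 3 with the largest negative fold change per class, the 3 of smallest unadjusted p per class between genotypes, and genes of the pathway lists, and any others were chosen after their values were seen.

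Replicate numbers share a flow cell. Same-numbered epithelial plates of the genotypes deviated together (r = 0.53, 0.26, 0.14 and 0.11), and those of T cells (0.04, 0.11 and 0.18) and macrophages (0.09, -0.0015 and 0.09) less so. A replicate block changed no call of the 41 genes.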

Additional observations from a re-analysis of the deposited data

Results flagged for a closer look

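Of 80 checks for a plate that stood far from the others of its genotype, 8 were positive, where chance gives about 1 in 20. The checks were not independent, since the sum, its roles and single genes of the same plates were each checked. In epithelial wells of FibΔZeb1 replicate 2 the sum of the 41 genes was 2480.5 CPM, where the other 3 plates of the genotype were at 636, 777 and 851 CPM. The same plate stood apart in epithelial transcription factors (398 CPM), ISG15-pathway genes (325 CPM), antiviral effectors (1189 CPM) and Irf7 (173 CPM, against 9.78, 10.98 and 13.84 CPM). In epithelial wells of FibCtrl replicate 3 the ISG15-pathway genes were at 375 CPM, far from 109.5, 147.6 and 154.1 CPM on the other FibCtrl plates. In neutrophils of FibΔZeb1 replicate 2 they were at 1099 CPM, far from 277.3, 373 and 398.2 CPM. The coefficient of variation between neutrophil wells of FibΔZeb1 replicate 3 was 1.76, and those of the other plates of the genotype were 0.825, 0.906 and 0.909.

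Stat2, found by a search over all 41 genes, differed in direction between classes. In T cells the FibΔZeb1 mean was 31.1 CPM above the FibCtrl mean (45.7 against 14.63 CPM) with no overlap of plates, and in fibroblasts it was -22.6 CPM (16.9 against 39.51 CPM) with no overlap. In T cells Stat2 had too few counts to pass the filter of the genotype comparison. Plates did not overlap for 4.64% of all genes with a transcript in T cells and for 17.2% in fibroblasts. The difference between the classes was not tested. Eif2ak2 was at 796 CPM in wells that no class claimed, and the highest mean of a main class was 68.1 CPM.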

How the results depend on the processing

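With no expression filter 5 genes were called higher in epithelial wells, 5 higher in fibroblasts, 2 lower in macrophages, 1 lower in neutrophils and 11 lower in B cells, and by genotype 1 in fibroblasts, 2 in macrophages and 1 in neutrophils. With classes from marker sums 1 gene was called higher and 8 lower in epithelial wells and 2 lower in macrophages, and the fibroblast sum was 1120.2 CPM with a genotype difference of 200.9 CPM, which was 13.6 CPM with no mitochondrial filter. DESeq2, DESeq2 size factors and leaving out the highest well of each plate and class, an alternative chosen after seeing the data, each gave 2 lower in macrophages, and the last also 1 lower in neutrophils. Thinning to 1000 transcripts gave a spread of 0.766 in fibroblasts, where FibΔZeb1 replicate 4 gave no value, and 0.369 in B cells. The cause was not tested. Another 186 values under these alternatives stayed within the spread between plates or within 1.5 times the count. The sign of a genotype difference was not part of that rule.

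With a replicate block 0 of the 41 genes were called by genotype in epithelial wells, fibroblasts, macrophages, neutrophils and T cells, as without it, and B cells could not be fitted. Over all genes the block called 75 in fibroblasts in place of 1, 6 in neutrophils and 2 in T cells. Fibroblast genes called by genotype numbered 322 with no filter, 42 by DESeq2 and 28 with flow cell as a covariate.

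Leaving out each plate in turn gave 1 to 3 genes higher and 8 to 14 lower in epithelial wells, 2 to 5 higher and 5 to 8 lower in fibroblasts, 12 to 21 higher and 1 to 2 lower in macrophages, 11 to 15 higher and 0 to 1 lower in neutrophils, 5 to 9 higher and 0 to 3 lower in T cells and 2 to 7 lower in B cells. The genotype difference of the sum ran from -580.7 to 70.6 CPM in epithelial wells, -173 to -57.9 in fibroblasts, -160 to 646 in macrophages, 23.3 to 976 in neutrophils, -410 to -79.9 in T cells and 75.4 to 672 in B cells. The sum itself ran from 1086.5 to 1350.1 CPM in epithelial wells, 929 to 996 in fibroblasts, 1812 to 2114 in macrophages, 2493 to 2986 in neutrophils, 2301 to 2431 in T cells and 970.1 to 1306 in B cells.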
